A study of Mus musculus with 2 samples.

Results

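The genes described here are 8 genes of antizyme and polyamine metabolism in mouse adrenal gland: the antizymes Oaz1 and Oaz2, ornithine decarboxylase (Odc1), the antizyme inhibitor Azin1, the acetyltransferase Sat1, S-adenosylmethionine decarboxylase (Amd1), spermidine synthase (Srm) and spermine synthase (Sms). They were taken by gene name from the deposited tables, and all 8 had reads in both libraries, out of 18179 annotated genes with reads in either. The gene set was selected on the measured read counts and transcript models of these same libraries, so its levels are given as a description. RNA was sequenced with long reads in 2 libraries made from adrenal glands of female B6CASTF1/J mice aged 10 days, a first-generation cross of B6 and CAST. Both libraries form 1 group with no treatment, other genotype or other age, and they are labelled biological replicates 1 and 2. The label texts give animal numbers that do not match each other for replicate 2, so whether the glands came from 1 or from several animals cannot be told, and p-values measure only the difference between these libraries, which may be technical.

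Polyamines are small positively charged molecules that bind nucleic acids and are needed for growth and translation. Ornithine decarboxylase makes putrescine, and spermidine synthase and spermine synthase extend it with groups supplied by S-adenosylmethionine decarboxylase. Antizymes bind ornithine decarboxylase and direct it to the proteasome without ubiquitin, antizyme inhibitors take antizyme away from it, and Sat1 acetylates spermidine and spermine for export or breakdown. Full-length antizyme is read only when the ribosome moves forward by a single base at a stop codon, a shift that high polyamine levels favour. An annotation without such a shift has to draw the coding sequence of an antizyme with that base left out, as an intron of few bases.

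Replicate 1 held 593058 reads and replicate 2 held 772037 reads after the ERCC spike-ins were left out, and values in CPM are counts scaled to these totals. A gene with 0 reads could stand at up to 5.06 CPM in replicate 1 and up to 3.89 CPM in replicate 2 (3 counts), and all intervals and limits cover counting error only. All 7 listed genes of the adrenal cortex and all 6 of chromaffin cells had reads in both libraries, with sums of 16884 and 4910 CPM in replicate 1 and 20774 and 5449 CPM in replicate 2. Genes of other tissues were also present, and their sums differed between the libraries. The 6 listed fat genes summed to 10206 CPM in replicate 1 and 14885 CPM in replicate 2. The 6 muscle genes summed to 10306 CPM in replicate 1 and 3601 CPM in replicate 2, but they did not all differ in the same direction. By the test between libraries described below, 3 passed as higher in replicate 1, 1 passed as higher in replicate 2 and 2 did not pass. Myh4 was the muscle gene that went the other way, at 8.43 CPM in replicate 1 against 190 in replicate 2. The 6 liver genes summed to 7119 CPM in replicate 1 and 1136 CPM in replicate 2. The 6 listed kidney genes were at 0 reads in replicate 1 and summed to 630 CPM in replicate 2. What these tissues added to the levels given below was not tested.

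The shift sites carry the finding on the antizymes and are shown as 60 bases of the sense strand, with the in-frame stop codon in capitals. The first capital is the base that the annotation removes with an intron of 1 base. The sites are in exon 2 of the main model of each gene, in coding sequence, and the third line is the same stretch of the processed pseudogene Oaz1-ps. Coordinates are those of GRCm38 (mm10), and the bases were read from the GENCODE M21 transcripts.
Oaz1 chr10:80828265-80828324, plus strand: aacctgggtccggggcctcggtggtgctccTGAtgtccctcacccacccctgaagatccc
Oaz2 chr9:65686242-65686301, plus strand: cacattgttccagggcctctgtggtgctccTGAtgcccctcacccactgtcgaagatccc
Oaz1-ps chr17:17345907-17345966, minus strand: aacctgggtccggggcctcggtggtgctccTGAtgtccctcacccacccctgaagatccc
The Oaz1 and Oaz2 stretches were identical at 49 of 60 positions, and at 28 of the 30 positions closest to the removed base.

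In the annotation, Oaz1 (chromosome 10, 80826656 to 80829290, ENSMUSG00000035242.15) has 7 models. Of these, 3 lack the single base at 80828295 as an intron of their own, and 1 lacks the 4 bases from 80828292 to 80828295. Oaz2 (chromosome 9, 65668001 to 65690300, ENSMUSG00000040652.16) also has 7 models, of which 2 lack the base at 65686272 and 1 lacks the 4 bases from 65686269. Both 4-base introns read TCCT. With the base left out, the reading frame of model Oaz1-207 has 227 codons before its stop, and with the base kept it reaches TGA after 68 codons. The frame of model Oaz2-206 has 189 codons with the base left out, and 32 codons before TGA with the base kept.

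No read of either gene lay on a model with an intron of 1 or 4 bases. Of the Oaz1 reads, 857 of 869 in replicate 1 (98.6%, exact 95% interval 97.6 to 99.3) and 1319 of 1322 in replicate 2 (99.8%, 99.3 to 99.95) lay on models whose exon runs through the site. For Oaz2 these were 211 of 227 reads in replicate 1 (93.0%, 88.8 to 95.9) and 218 of 230 in replicate 2 (94.8%, 91.1 to 97.3). The remaining reads did not reach the site, apart from 4 Oaz1 reads of replicate 1 that skipped its exon. The deposited models hold introns and exon ends only, and no model of any gene had an intron below 31 bases, so these files could not show whether a read lacked the base, and the 0 sets no limit on that.

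The main Oaz1 model had 5 exons and 4 introns, and none of the 7 annotated Oaz1 models had a read in either library. Its introns were 80826906 to 80828236, 80828383 to 80828460, 80828634 to 80828710 and 80828797 to 80828870, with lengths of 1331, 78, 77 and 74 bases, which is the chain of Oaz1-207 without its intron of 1 base. It held 814 of 869 reads in replicate 1 (93.7%, 91.8 to 95.2) and 1262 of 1322 in replicate 2 (95.5%, 94.2 to 96.5). The deposited tables class it as NIC, a new combination of annotated splice sites, and NIC models held 845 Oaz1 reads in replicate 1 and 1298 in replicate 2. Those were 3.28% and 4.18% of all NIC reads of the 2 libraries, the highest share of any gene in replicate 2 and the second highest in replicate 1, after the muscle calcium pump gene Atp2a1 with 856 reads.

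The main Oaz2 model also had 5 exons, with introns 65676766 to 65686195, 65686354 to 65687797, 65687974 to 65688820 and 65688907 to 65689094. It held 196 of 227 reads in replicate 1 (86.3%, 81.2 to 90.5) and 198 of 230 in replicate 2 (86.1%, 80.9 to 90.3). Annotated Oaz2 models held 1 read in replicate 1 and 0 in replicate 2. Once annotated introns of 10 bases or fewer were closed, 829 Oaz1 reads in replicate 1 (95.4%, 93.8 to 96.7) and 1278 in replicate 2 (96.7%, 95.6 to 97.6) lay on an annotated chain of introns. The same step placed 197 Oaz2 reads in replicate 1 (86.8%, 81.7 to 90.9) and 198 in replicate 2 (86.1%, 80.9 to 90.3) on an annotated chain.

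**Figure D1:**
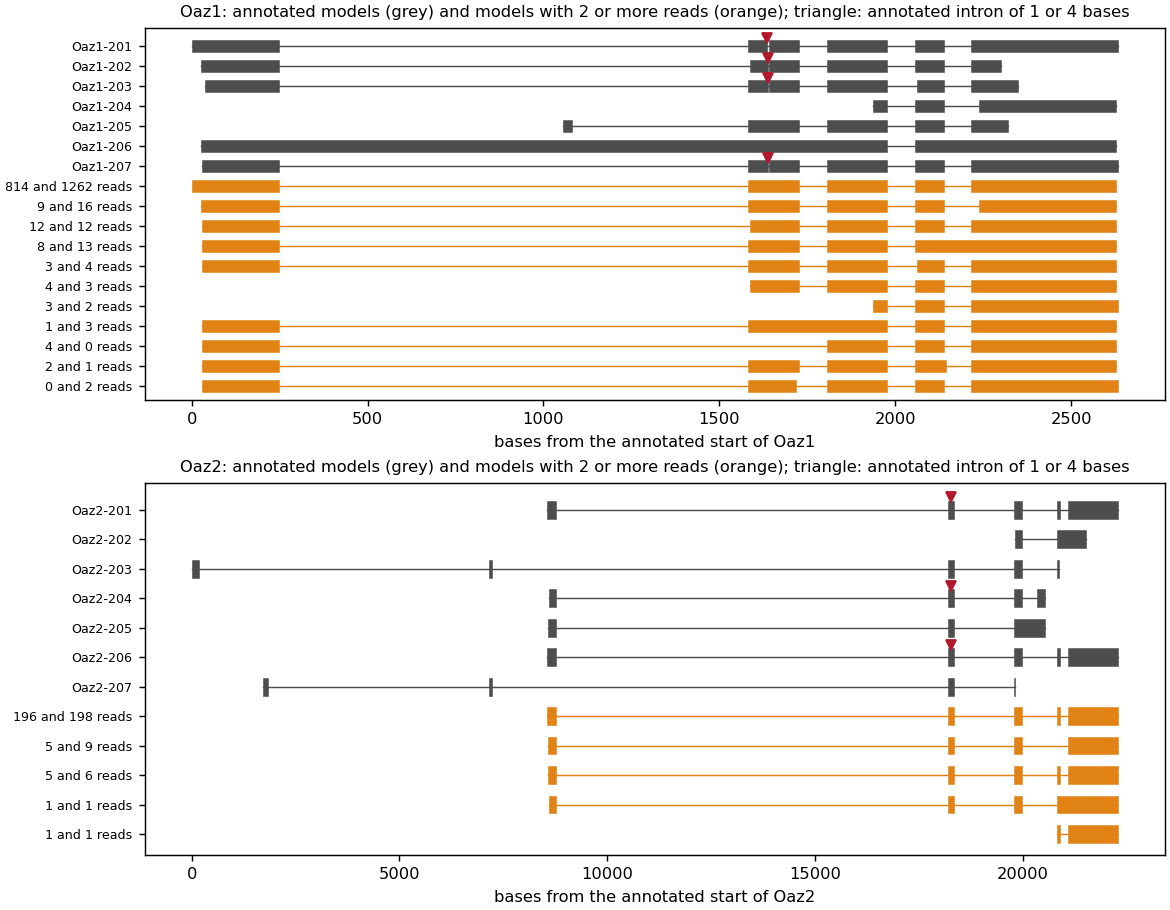
Annotated models of Oaz1 and Oaz2 (grey) and deposited spliced models with 2 or more reads summed (orange), with boxes for exons, by distance in bases from the annotated start of the gene. Labels give reads in replicate 1 and replicate 2. Single-exon models, and a 6-exon Oaz2 model with 1 read in each library, are not drawn. Triangles mark the annotated introns of 1 or 4 bases, which no orange model has, and the top orange models hold 814 and 1262 reads of Oaz1 and 196 and 198 reads of Oaz2.

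The same was seen across the annotation. Of 284419 annotated introns, 336 in 242 genes have 10 bases or fewer (0.118%), and no read in either library lay on a model with one. The shortest intron of any model with reads was 31 bases in replicate 1 and 33 bases in replicate 2. Of the 336 introns, 60 were crossed by the exon of a model with reads in both libraries. Summed over all 336, the crossing reads were 3330 in replicate 1 and 4649 in replicate 2. A read counts once for each intron it crosses. The Oaz1 reads, 857 and 1319, therefore enter for its 1-base and again for its 4-base intron and make up much of these sums.

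Oaz1 had the most reads of all 242 genes, followed by the actin-binding protein gene Cfl1 and then Oaz2. The other genes of the top 10 were Mpc1, Pitpna, Ltbp4, Tmem134, Creb3, Nadk2 and Ptpmt1. They differed in how many reads still found an annotated model. In Cfl1, with introns of 2 bases, these were 100% of reads in replicate 1 and 64.5% in replicate 2. Among genes with an intron of 1 base, as in the antizymes, they were 85.9% and 88.7% in Tmem134, 22.4% and 39.2% in Nadk2, and 1.01% and 0% in Pitpna. In Mpc1, with an intron of 4 bases, the share was 1.18% in replicate 1 and 0.450% in replicate 2. There, 2 of 170 and 3 of 222 reads ran across that intron. Among the 2620 genes with 100 or more reads summed, 22 (0.840%) had no read on an annotated model in either library. Oaz1 had the most reads of them, 2191, followed by Ndufa13 with 1046. Ndufa13 is not among the 242 genes with an annotated intron of 10 bases or fewer.

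Oaz1 was the highest of the 8 genes. Its level was 1465 CPM in replicate 1 and 1712 in replicate 2 (mean 1589 ± 175, SD, n = 2), from 869 and 1322 reads, and ranked 52nd and 44th among annotated genes. For Oaz2 it was 383 CPM in replicate 1 and 298 in replicate 2 (340 ± 60.0), from 227 and 230 reads. Both antizymes stood above the other 6 genes in both libraries and together took 85.2% of the reads of the set in replicate 1 (83.1 to 87.1) and 83.8% in replicate 2 (82.1 to 85.5). In read counts, not scaled for length, there were 3.83 Oaz1 reads for each Oaz2 read in replicate 1 and 5.75 in replicate 2.

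Odc1, the target of the antizymes (chromosome 12, 17544794 to 17551505), had 41 reads in replicate 1 and 69 in replicate 2, which gave 69.1 and 89.4 CPM. For each Odc1 read there were 21.2 Oaz1 reads in replicate 1 and 19.2 in replicate 2, again not scaled for length. Azin1, the inhibitor (chromosome 15, 38487427 to 38519266), had 47.2 and 47.9 CPM, from 28 and 37 reads. The other antizyme inhibitor gene, Azin2, was at 57.3 CPM in replicate 1 and 80.3 in replicate 2, from 34 and 62 reads. A further antizyme gene, Oaz3, known from testis, had 0 reads in replicate 1 and 1 read in replicate 2.

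Of the genes that build the longer polyamines, Srm (chromosome 4, 148591503 to 148594993) was highest, with 89.4 CPM in replicate 1 and 90.7 CPM in replicate 2, from 53 and 70 reads. Amd1 (chromosome 10, 40287458 to 40302186) had 20.2 and 22.02 CPM, from 12 and 17 reads. Sms (X chromosome, 157443855 to 157492287) had 20.2 and 19.4 CPM, from 12 and 15 reads. Sat1 (X chromosome, 155213132 to 155216449) had 45 reads in replicate 1 and 91 in replicate 2, which gave 75.9 and 118 CPM.

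**Figure D2:**
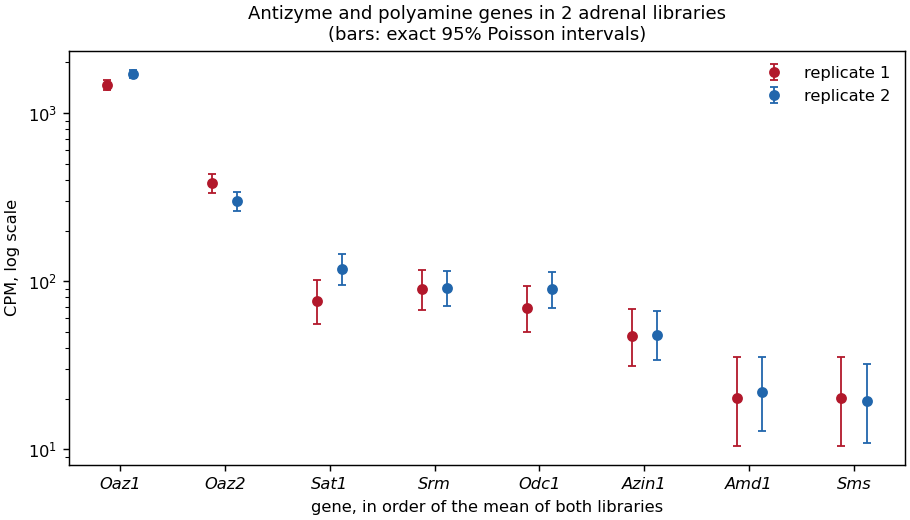
CPM on a log axis for the 8 genes, with replicate 1 left of replicate 2 and exact 95% Poisson intervals as bars. Oaz1, at 1465 and 1712, and Oaz2, at 383 and 298, stand above the other 6 genes, which lie between 19.4 and 118.

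By mean level the order was Oaz1, Oaz2, Sat1, Srm, Odc1, Azin1, Amd1 and Sms. The library ranges of Sat1 and Srm, of Srm and Odc1, and of Amd1 and Sms overlapped or touched, so these neighbours could not be ordered. The other 4 pairs of neighbours did not overlap. These ranges hold the 2 library values only and leave out counting error. In replicate 1, Odc1 and Azin1 rest on 41 and 28 reads. Counts are whole reads, so CPM remain the levels used here. A scale per kilobase of model length, weighted by reads, served only to check the order. It gave 1504 CPM per kb for Oaz1, 187 for Oaz2, 83.2 for Sat1, 70.7 for Srm and 42.4 for Odc1. Azin1 had 12.2, Amd1 7.42 and Sms 7.04 CPM per kb, so the order was the same on that scale. In bulk tissue, fewer cells of a type and less RNA per cell cannot be told apart.

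The libraries were compared with an exact binomial test of each gene's reads against the share of all reads, two-sided and adjusted by Benjamini-Hochberg over 10567 genes with 10 or more reads. A gene passed where the adjusted p was below 0.05 and the libraries differed by 2-fold or more, which 3.88% of all genes did. None of the 8 genes passed. Oaz1 was at 0.856 of its replicate 2 level in replicate 1 (95% interval 0.785 to 0.933), with an adjusted p of 0.0075 in the exact test but a change below 2-fold. With edgeR's negative binomial exact test, Oaz1 did not pass. The spread in that test was estimated over all genes from these same 2 libraries. It therefore holds the difference being tested, and the result does not show that the libraries are alike. Oaz2 went the other way, at 1.28 times its replicate 2 level in replicate 1 (1.06 to 1.55, exact adjusted p = 0.088). Sat1 was at 0.644 (0.440 to 0.930, exact adjusted p = 0.14) and Odc1 at 0.774 (0.512 to 1.15, exact adjusted p = 0.60). The ratios of Srm (0.986, 0.676 to 1.43), Azin1 (0.985, 0.581 to 1.65), Amd1 (0.919, 0.400 to 2.04) and Sms (1.04, 0.445 to 2.38) had intervals that held 1. The median log2 ratio, replicate 1 over replicate 2, was -0.06 over the 8 genes and 0.04 over all genes tested.

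**Figure D3:**
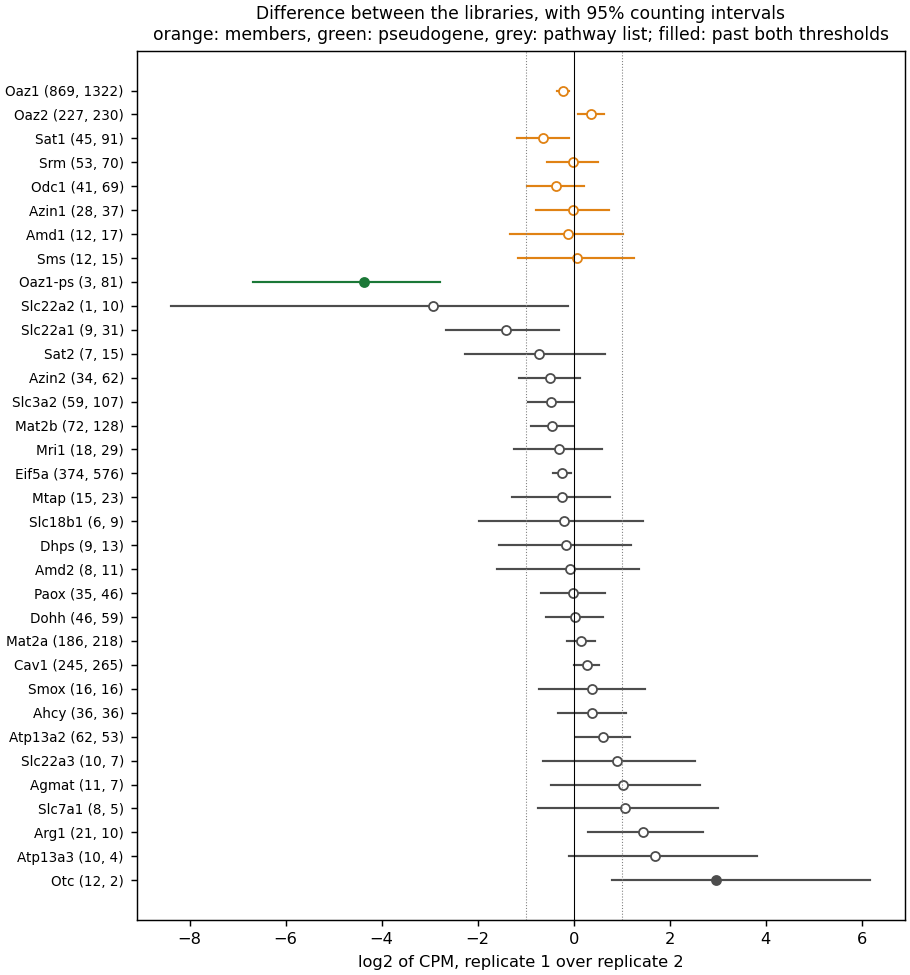
Log2 ratio of CPM, replicate 1 over replicate 2 and without a pseudocount, for the 8 genes (orange), the pseudogene Oaz1-ps (green) and 25 genes of the wider pathway (grey), with 95% counting intervals; labels give the reads in replicate 1 and replicate 2. Filled points, Oaz1-ps with 3 and 81 reads and Otc with 12 and 2, passed both thresholds, and all 8 orange points are open.

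The wider pathway was described with a list of 30 genes, of which 29 had reads and 25 had 10 or more. Only Otc passed among the 25 (1 higher in replicate 1, 0 higher in replicate 2), against the 3.88% of all genes, and over the list the log2 ratio had a median of -0.01. Otc, the urea cycle enzyme ornithine transcarbamylase, was at 20.2 CPM in replicate 1 and 2.59 in replicate 2 (7.81-fold, 1.74 to 71.9, from 12 and 2 reads, exact adjusted p = 0.029). Arg1, the liver arginase, had 35.4 and 13.0 CPM and did not pass (exact adjusted p = 0.10). Both are known as liver genes, all 6 listed liver genes were called higher in replicate 1, and the part of liver RNA in the 2 values was not tested.

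The target of spermidine in translation was also measured. Eif5a, the factor that carries hypusine, a residue made from spermidine, was at 631 CPM in replicate 1 and 746 in replicate 2, from 374 and 576 reads. The enzymes that make hypusine were lower, with 15.2 and 16.8 CPM for Dhps and 77.6 and 76.4 CPM for Dohh. Mat2a, which makes S-adenosylmethionine, had 314 and 282 CPM, and Mat2b, its regulatory partner, 121 and 166 CPM. Of the oxidases that break polyamines down, Paox had 59.0 and 59.6 CPM and Smox 27.0 and 20.7 CPM. Atp13a2, a polyamine exporter of lysosomes, had 105 and 68.6 CPM. None of these passed the test between libraries.

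Near-identical copies bear on Oaz1 and Amd1. The pseudogene Oaz1-ps (chromosome 17, 17345456 to 17346140, minus strand) is a single exon of 685 bases that matches the Oaz1 coding sequence with the removed base kept, at 684 of 685 positions. The sole difference is G125C, counted from the first base of the coding sequence, with the Oaz1 base first. Oaz1-ps had 3 reads in replicate 1 and 81 in replicate 2, or 5.06 and 105 CPM. Its level in replicate 1 was 0.0482 of that in replicate 2 (0.00974 to 0.146, exact adjusted p = 8.9e-15), and it was called, with a log2 ratio of -4.16. With the pseudogene reads added to Oaz1, the sums were 872 and 1403 reads, and the ratio, replicate 1 over replicate 2, was 0.809 (0.743 to 0.881). Oaz1-ps made 0.344% of this sum in replicate 1 and 5.77% in replicate 2, and whether reads of one were assigned to the other was not tested.

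Amd2 (chromosome 10, 35708675 to 35711892) is annotated as a protein-coding gene with a single exon, and its model aligned to the Amd1 transcript with 3188 identical positions of 3202 (99.6%). It had 8 reads in replicate 1 and 11 in replicate 2, beside 12 and 17 for Amd1, so Amd2 took 8 of 20 and 11 of 28 of their summed reads. Of the Amd1 reads, 10 in replicate 1 and 15 in replicate 2 lay on the annotated 8-exon model Amd1-201, whose introns set them apart from Amd2. The pseudogene Oaz2-ps had 1 read, in replicate 2.

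Apart from the antizymes, the genes of the set had reads on annotated models. Across all annotated genes, annotated models held 71.0% of reads in replicate 1 and 75.6% in replicate 2. The share was 91.1% and 93.4% for Sat1, 83.0% and 88.6% for Srm and 83.3% and 88.2% for Amd1. It was 61.0% and 68.1% for Odc1, 58.3% and 53.3% for Sms, and 14 of 28 reads and 17 of 37 reads (45.9%) for Azin1. With 12 to 91 reads each, their intervals are wide; that of Azin1 ran from 30.6 to 69.4% in replicate 1 and from 29.5 to 63.1% in replicate 2. The class of incomplete splice matches made 14.6% and 14.5% of Odc1 reads, against 13.5% and 11.8% over all annotated genes. For Azin1 it held 6 of 28 reads in replicate 1, all on spliced models, and 10 of 37 in replicate 2, of which 8 were on a single-exon model. Single-exon reads of Azin1 in replicate 1, 4 in number, were classed as genomic, so the class is not comparable between the libraries for this gene.

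**Figure D4:**
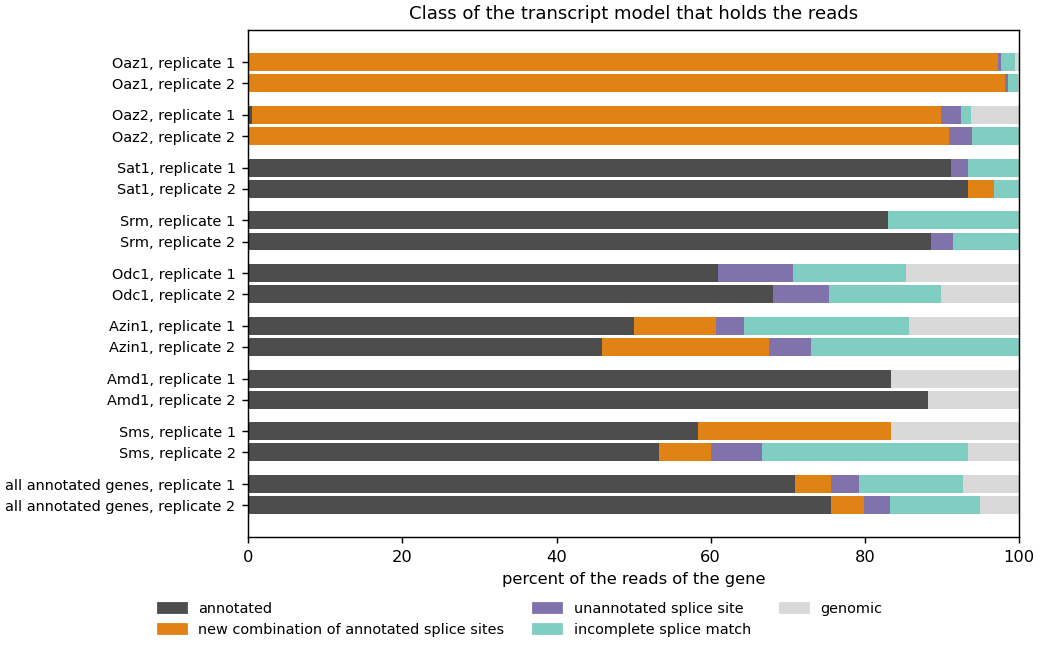
Percent of each gene's reads by the class of the deposited model that holds them, for both libraries, with all annotated genes at the bottom. Oaz1 and Oaz2 are almost wholly orange, with 97.2 and 98.2% and 89.4 and 90.9% of reads on new combinations of annotated splice sites, while annotated models (dark grey) hold 71.0 and 75.6% over all annotated genes.

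The share of the main model was tested between libraries for genes with 50 or more reads in each, by Fisher's exact test adjusted over 2162 genes, and 1.8% of them passed at 10 or more percentage points. Oaz1, Oaz2 and Srm could be tested, and none passed. The main model of Oaz1 differed by -1.79 points (replicate 1 minus replicate 2, exact adjusted p = 0.45) and that of Oaz2 by 0.257 points (exact adjusted p = 1). Srm-201, with 7 exons, held 44 of 53 Srm reads in replicate 1 (83.0%, 70.2 to 91.9) and 62 of 70 in replicate 2 (88.6%, 78.7 to 94.9), a difference of -5.55 points (exact adjusted p = 0.85).

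Among the minor forms of Oaz1, 3 had 9 or more reads in each library. An acceptor 6 bases further into exon 2 was used by 13 of 851 reads in replicate 1 (1.53%, 0.816 to 2.60) and 12 of 1316 in replicate 2 (0.912%, 0.472 to 1.59), which keeps the reading frame. An acceptor 22 bases into the last exon was used by 9 of 854 reads in replicate 1 (1.05%) and 16 of 1305 in replicate 2 (1.23%). The last intron, of 74 bases, was kept by 9 of 854 reads in replicate 1 (1.05%) and 14 of 1303 in replicate 2 (1.07%). Both acceptors are annotated. The other forms had fewer reads, such as an acceptor 8 bases into exon 4 with 4 reads in each library (0.463% and 0.303%). Exon 2 of Oaz1, which holds the shift site, was skipped by 4 reads in replicate 1 and 0 in replicate 2, and that junction is not annotated.

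In Oaz2, the fourth exon, of 86 bases, was skipped by 5 of 212 reads in replicate 1 (2.36%, 0.770 to 5.42) and 9 of 218 in replicate 2 (4.13%, 1.90 to 7.69), a junction that is not annotated. Single-exon models within Oaz2 held 14 reads in replicate 1 (6.17%) and 11 in replicate 2 (4.78%). Models that began 37442 bases upstream of Oaz2, within the neighbouring gene Rbpms2, and spliced into Oaz2 exons held 2 reads in replicate 1 and 1 in replicate 2.

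Acceptors 3 bases downstream of the main one were used in Oaz2, Odc1 and Azin1. For Oaz2 and Azin1 they lie in coding sequence and drop 3 bases, shown here in capitals between 12 bases on either side in the spliced transcript, to show that the dropped bases end in AG, the letters that close most introns.
Oaz2 chr9:65686196-65686198, plus strand: cacccaggacagTAGtattttgccgtt
Azin1 chr15:38492357-38492359, minus strand: tttcctctggagTAGaaaaaaatggga
The shorter Oaz2 form had 5 of 209 reads in replicate 1 (2.39%, 0.781 to 5.49) and 6 of 216 in replicate 2 (2.78%, 1.03 to 5.95), and its junction is not annotated. The shorter Azin1 form, which is annotated, had 2 of 24 reads in replicate 1 (8.33%, 1.03 to 27.0) and 5 of 28 in replicate 2 (17.9%, 6.06 to 36.9). In Odc1 the dropped bases were AAG, 16 bases before the start codon in the 5′ untranslated region, with 4 of 30 reads in replicate 1 (13.3%, 3.76 to 30.7) and 4 of 53 in replicate 2 (7.55%, 2.09 to 18.2). Of 58 junctions of the 8 genes with 20 or more reads, 3 (5.17%) had such a companion. Over all genes, 1.70% of 61611 junctions had one. The contrast rests on 3 junctions, was not matched for depth beyond the minimum of 20 reads and was not tested.

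Sat1 reads lay mainly on Sat1-201, with 40 of 45 in replicate 1 and 82 of 91 in replicate 2. An added exon of 110 bases (X chromosome, 155215121 to 155215230) is annotated in Sat1-207 as a target of nonsense-mediated decay, the breakdown of RNA with an early stop, and the exon is known for being included when polyamines are low. The coding sequence from the start of the exon before it to the stop is shown with the stop codon in capitals, to show how soon the frame ends.
Sat1 chrX:155215217-155215684, minus strand, spliced: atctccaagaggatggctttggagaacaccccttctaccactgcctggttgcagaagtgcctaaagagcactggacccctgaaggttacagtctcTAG
The exon before it gives 84 of these bases and the added exon 14. It was included by 1 of 41 reads in replicate 1 (2.44%, 0.0617 to 12.9) and 4 of 89 in replicate 2 (4.49%, 1.24 to 11.1), shares that this depth could not tell apart.

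Azin1 had an added exon of 160 bases (chromosome 15, 38507187 to 38507346) upstream of its coding sequence. It was included by 1 of 19 reads in replicate 1 (5.26%, 0.133 to 26.0) and 5 of 27 in replicate 2 (18.5%, 6.30 to 38.1). The 12-exon model Azin1-201 held 13 and 15 reads. Odc1-201, with 12 exons, held 25 of 41 Odc1 reads in replicate 1 and 47 of 69 in replicate 2, and no Odc1 read was on a new combination of annotated splice sites. For Sms, the 11-exon model Sms-201 held 7 and 8 reads, and a first exon ending 613 bases downstream of the main one was used by 1 of 10 reads in each library.

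**Figure D5:**
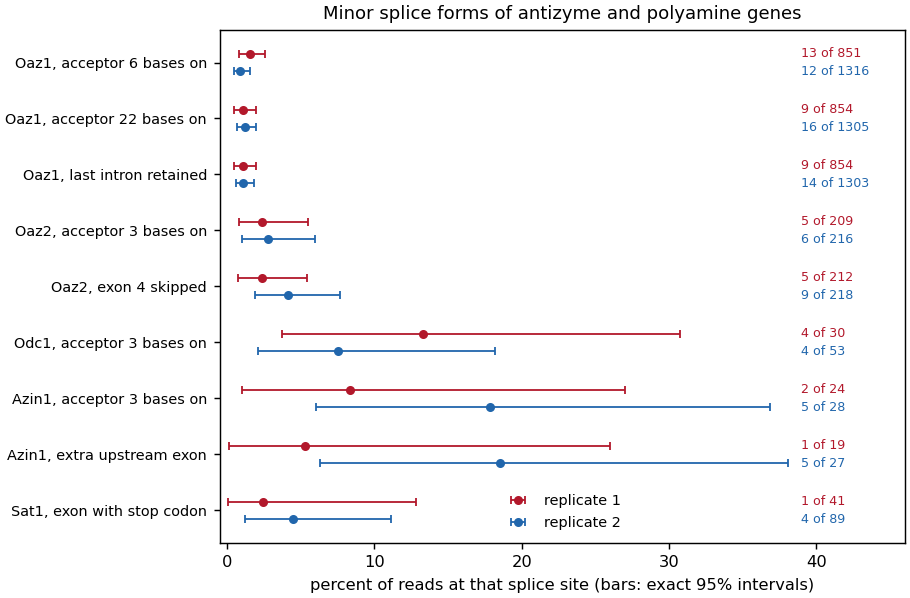
Percent of reads at a splice site that used the named minor form, with exact 95% intervals, for replicate 1 (red) above replicate 2 (blue); the counts are at the right. The intervals of both libraries overlap for all 9 forms, with 1.53 and 0.912% for the 6-base Oaz1 acceptor and 5.26 and 18.5% for the extra Azin1 exon.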

How the data were processed

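Long-read RNA was measured in 2 adrenal libraries of 1 group. Per the labels and the notes in the deposit, the authors aligned reads to mm10 with the GENCODE M21 annotation and deposited raw counts, whole reads per TALON transcript model, with no normalization; aligner, platform and versions were not given in the sources used here. The libraries were processed separately. Here, counts were summed per gene and divided by totals without ERCC spike-ins (593058 and 772037 reads) to give CPM. Models were joined to the deposited exon coordinates, and matched between libraries by annotated name or identical introns; single-exon models outside the annotation were pooled per gene. Shares have exact Clopper-Pearson intervals. Tests ran in scipy 1.17.1 on the raw counts of all genes above the read minimums, and were tested on simulated data. The pseudocount of 0.5 reads entered only the log2 ratios given in the text, which were held against the 2-fold minimum. Alternatives came from edgeR 4.0.16 and DESeq2 1.42.0. Sequences came from GENCODE M21 transcripts. The genes and lists were chosen with earlier results of these data known. Named genes are the 8 genes, pathway genes with 10 or more reads, the 10 genes with most reads among those with annotated introns of 10 bases or fewer, near copies, and genes a comparison turns on; these last, and Oaz3, which has 1 read, were chosen after their values were seen. For the marker lists of cortex, chromaffin cells, fat, muscle, liver and kidney, the sums are given in the text. Of the other lists, erythroid summed to 4829 and 3593 CPM, macrophage to 118 and 86.8 and endothelial to 472 and 395, in replicates 1 and 2.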

Additional observations from a re-analysis of the deposited data

Results flagged for a closer look

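Reads on the strand opposite to a gene of the set were in no comparison above, and at 2 loci there were 5 or more in each library. The background of such reads was not estimated, and no test was run on them. Opposite to Sat1 there were 12 reads, 5 in replicate 1 and 7 in replicate 2, between 155213315 and 155214904 on the X chromosome. Opposite to Azin1 there were 10 reads, 5 in each library, spread over 3 and 5 models. None of their introns matched one of the main Sat1 or Azin1 model. Groups of 2 samples were not tested for samples that stand apart.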

How the results depend on the processing

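The count of genes called between libraries was 410 (306 higher in replicate 1, 104 in replicate 2). It was 132 with the negative binomial exact test, 273 with annotated models only and 782 with no fold minimum. It stayed within 1.5 times under 6 other settings. These were TMM, DESeq2 size factors, spike-ins in the totals, other tissue and mitochondrial genes left out of the totals, no read minimum, and spliced models. With no fold minimum the split turned to 376 higher in replicate 1 and 406 in replicate 2. The count of genes with a changed main model was 39, and was 14 with spliced models only, 21 with a minimum of 20 reads and 79 with no minimum difference. Of 70 recomputed ratios of the 8 genes, 65 kept direction and side of the threshold, and Oaz1 passed once the fold minimum was dropped. The log2 ratio of Azin1 (-0.02) changed sign to 0.0035 with other tissue and mitochondrial genes left out of the totals. It also changed sign to 0.11 with annotated models and 0.11 with spliced models. That of Srm (-0.02) changed to 0.0014 with other tissue and mitochondrial genes left out of the totals, and none was called. Oaz1-ps stayed called in every setting that gave a value, with adjusted p from 3.6e-15 to 0.00014. With annotated models only, mean levels were 0 CPM for Oaz1 and 0.843 CPM for Oaz2, against 1589 and 340 with all models. They also fell by over 1.5 times for Azin1 (22.8 against 47.6 CPM), Sms (11.1 against 19.8) and Odc1 (51.5 against 79.3), since fewer models are counted. Raising the limit on short introns to 30 bases could not change the 0 antizyme reads, since no model with reads has an intron that short. With 1 library on each side, no library could be left out of the comparison, and no paired analysis was possible because there is 1 group. Depth limits Amd1 and Sms, with 12 to 17 reads a library: the interval of the Amd1 ratio ran from 0.400 to 2.04.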
